A study of Mus musculus with 3 samples.

Results

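Tumour cells rich in the simple keratins Krt8 and Krt18 and poor in the basal keratins Krt14 and Krt5 made up 802 of the 7620 single cells profiled. They were picked by their own counts of these genes. A member came from a Collagen or Matrigel culture, had at least 10000 UMIs (unique molecular identifiers, each standing for 1 captured transcript) and carried at least 1 Epcam UMI. Its Krt8 and Krt18 UMIs together reached 10 per 10000 UMIs of the cell, and its Krt14 and Krt5 UMIs together stayed under 1 per 10000. These cells are called luminal-keratin cells here, after the rule. Of 5896 culture cells that passed the depth and Epcam filters, 13.6% were luminal-keratin cells. The comparison cells, called Krt14 cells, passed the same depth and Epcam filters and had at least 5 Krt14 UMIs per 10000. They numbered 3025 (51.3%), and the other 2069 cells met neither definition.

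By its label, every culture cell came from a primary mammary tumour (20 mm) of 1 of 4 FVB mice carrying the C3(1)-Tag transgene, aged 25 to 30 weeks, so no group lacks the transgene. In this model the viral large T antigen is expressed from a promoter fragment of the rat C3(1) gene. Freshly isolated cells (passage 0) grew as organoids in collagen I or as clusters in Matrigel, a basement membrane extract, in DMEM/F12 with ITS, PS and 2.5 nM FGF2, and were taken after 12 h (day 0), 3 days or 5 days. Each day was 1 pool and 1 labelled batch. Batch cannot be told apart from day, and mouse 4 had no cells on day 5. The annotation names its first time D1, and taking this as day 0 is an inference. Collagen cells were freed with collagenase and Matrigel cells with EDTA on ice, so matrix and release cannot be told apart. Cells of 4T1, an established mouse mammary carcinoma line grown on plastic in RPMI with 10% FBS at passage 2, were part of every pool. A lipid-anchored barcode (MULTI-seq) marked the mouse and matrix of a cell before live cells were sorted with propidium iodide and captured with 10x 3' v2 chemistry. The replicate is the mouse.

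Keratins are filament proteins that assemble as pairs of a type I and a type II chain. Krt8 and Krt18 are the pair of simple epithelia and of luminal mammary cells, and Krt5 and Krt14 are the pair of basal and myoepithelial mammary cells, where the transcription factor p63 (Trp63) sustains their expression. In mammary carcinomas the programmes can mix within a cell, and Krt14 marks cells at the front of collectively invading organoids. Epcam encodes a surface adhesion protein of epithelial cells. In GRCm38 coordinates Krt8 lies at chr15:101996698-102004482 (minus strand) and Krt18 at chr15:102028180-102032027 (plus strand), with Krt5 in the same keratin cluster at chr15:101707070-101712898 (minus strand). Krt14 lies at chr11:100203162-100207548 (minus strand) and Epcam at chr17:87635979-87651129 (plus strand).

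The values that chose the cells are given as a description. Luminal-keratin cells had a median of 28.3 Krt8 and Krt18 UMIs per 10000 (quartiles 18.0 and 42.6), and Krt14 cells 21.7 (10.6 and 36.2). The gates therefore differ mainly in basal keratin: 76.8% of Krt14 cells (2324) also reached 10 Krt8 and Krt18 UMIs per 10000. Median Krt8 was 8.52 per 10000 in luminal-keratin cells and 9.61 in Krt14 cells, whereas median Krt18 was 19.4 and 11.7. Median Epcam was 15.3 and 18.0, and median Krt14 was 0.342 and 13.9. Near the limits, 50 members had 10 to 12 Krt8 and Krt18 UMIs per 10000, and 54 cells of otherwise like counts were just outside at 8 to 10. A further 112 members had 0.8 to 1 Krt14 and Krt5 UMIs per 10000, and 94 cells were just outside at 1 to 1.2. On the other side, 269 Krt14 cells had 5 to 6 Krt14 UMIs per 10000 and 303 cells were just under at 4 to 5.

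The counts go against reading these cells as devoid of basal keratin. A Krt14 or Krt5 UMI was present in 550 of the 802 members, up to 10 UMIs in a cell, and absent from 252. After each cell was thinned to 10000 UMIs, 31.0% of members had a Krt14 UMI. In macrophage-like cells of the same pools, which should lack the gene, the share was 9.62% (156 cells, median 16872 UMIs before thinning, against 33207 in members). The thinned share with a Krt5 UMI was 1.87% in members, 0.641% in macrophage-like cells and 15.8% in Krt14 cells. When the rule was applied to the thinned counts, 613 cells passed, of which 509 were among the 802.

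Some members clustered with the 4T1 line, and results that rest on them are given with and without them. The cluster that held the line (366 cells) included 56 cells labelled as mouse cells, 31 of them luminal-keratin cells and 5 Krt14 cells. Pooled Vim was 3869 CPM (counts scaled to a common total) in these 31 members, 2682 CPM in the line and 582 CPM in the other members, and pooled Eno3 was 181, 220 and 4.97 CPM. Whether the mouse labels of these cells are right was not tested. Of 298 deep, Epcam-positive 4T1 cells, 207 (69.5%, exact 95% interval 63.9 to 74.6) met the luminal-keratin rule and 8 the Krt14 rule. The largest part of a culture was in mouse 4 Collagen on day 0, where 8 of 10 members lay in this cluster and the members' median depth was 55537 UMIs, against 19458.5 for the culture's passing cells. Mice 1, 2 and 3 had 6, 4 and 1 such members there. The 4 mice had 2, 2, 0 and 4 in Matrigel on day 0. Only 1 member and 3 Krt14 cells lay in clusters of macrophage-like, fibroblast-like or T and NK-like cells (337 cells), and 2 members shared a cell barcode with another library.

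Pooled over cultures, both gates had like depth and cell quality. Median depth was 33207 UMIs in luminal-keratin and 34498 in Krt14 cells, median genes per cell were 5744 and 5810, and the median mitochondrial share was 3.72% and 3.77%. Within cultures depth differed. Members had the higher median in each day 0 culture, with 25756 against 21777.5 UMIs in mouse 1 and 55537 against 18569 in mouse 4 of Collagen. On days 3 and 5 they were also deeper in Collagen, except in mouse 2 on day 5. In Matrigel on day 3 they were shallower in mice 2 (33363 against 42634.5) and 3. Defining markers of most other cell types were low in both, and the summed levels of macrophage and neutrophil markers were higher than the rest. The summed level of 8 macrophage markers ranged from 15.7 to 106 CPM (UMIs of a gene scaled to a common library total, over the summed cells of 1 mouse, matrix, day and gate) in luminal-keratin cells, with a median of 67.1, and from 38.5 to 97.7, with a median of 64.1, in Krt14 cells, and none of the 8 was at 0. The macrophage sum was mostly Cd14, which is also in the list of luminal progenitor genes. Pooled Cd14 was 66.1 CPM in members outside the 4T1 cluster and 56.3 CPM in Krt14 cells. The leukocyte gene Ptprc was at 0.25 and 0.207 CPM. The summed level of 6 fibroblast markers had medians of 4.92 and 8.57 CPM (0 to 18.8 and 3.13 to 39.4), again with none at 0 over all cells. Cd3e, Cd3g and Gzmb, of 4 measured T and NK markers, were at 0 in luminal-keratin cells (summed level 0 to 5.79 CPM, against 3.45 to 54.3), as were Cdh5 and Emcn of 4 endothelial markers (0 to 4.70 and 0 to 3.96). The T and NK sum of Krt14 cells was nearly all Trbc2 (pooled 20.7 CPM). Cd3e, Cd3g and Gzmb were near 0 there too, at pooled levels of 0.0259, 0.00864 and 0.00864 CPM. Trbc2 was among the leading genes of cluster 2, which held 9 members and 345 Krt14 cells. The summed level of 3 neutrophil markers had medians of 44.0 and 133 CPM (0 to 1086 and 3.21 to 557). It was mostly S100a8, a calcium-binding protein that stressed epithelial cells also make (0 to 1248 CPM on TMM-adjusted totals, which correct for composition, in luminal-keratin cells), and S100a9 stood at 0 to 23.8 CPM on that scale. B cell, dendritic and pericyte lists reached at most 27.1 CPM. The part of all these markers in the results was not tested.

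Luminal-keratin cells did not form a cluster of their own. They fell in 21 of 24 clusters, and the largest group, 176 members (21.9%), sat in cluster 0, which led with the secreted protein genes Dcpp1 and Bpifa2. Cluster 3, led by Ppfibp1, Fgfr1op2 and Med21, held 119 members, 106 of them from mouse 2, and cluster 14 held 50, of which 49 came from mouse 3. Cluster 11, led by the heat-shock and immediate early genes Hspa1a, Atf3 and Egr1, held 59 members, or 30.7% of its passing cells. Cluster 4, led by Mdm2 and other p53 target genes, held 57, or 14.6% of its passing cells, near the 13.6% over all passing cells. It held 7.11% of members and 7.47% of Krt14 cells. Cluster 6, led by histone genes with Ube2c and Cenpf among the next, held 37 members (4.61% of members, against 6.08% of Krt14 cells). Cluster 19, also led by histone genes, held 1 member and 82 Krt14 cells. Cluster 12, led by Krt5 and the smooth-muscle actin gene Acta2, held 0 members and 297 Krt14 cells. Luminal-keratin cells are thus a range cut from several clusters, and mice differed in the clusters that supplied them.

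The share of luminal-keratin cells was lowest in mouse 4 on the days that mouse was profiled. On day 0 in Collagen they made up 25.8% of passing cells in mouse 1 (71 of 275), 23.4% in mouse 2 (30 of 128), 22.6% in mouse 3 (26 of 115) and 13.2% in mouse 4 (10 of 76). In Matrigel on day 0 the shares were 21.8% (67 of 307), 27.2% (66 of 243), 17.9% (58 of 324) and 6.18% (17 of 275). Mouse 4 was the lowest in each matrix. Without the 4T1 cluster its share was 2.99% in Collagen and 4.83% in Matrigel, and the other mice lay between 18.0% and 26.9%. On day 3 mouse 4 had 0.926% in Collagen (1 of 108) and 0.565% in Matrigel (2 of 354), and mice 1, 2 and 3 had 9.49%, 15.2% and 15.2% in Collagen. Their Matrigel shares that day were 15.6%, 25.5% and 12.9%. On day 5 the Collagen shares were 3.19% (3 of 94), 4.49% (15 of 334) and 8.0% (48 of 600) in mice 1, 2 and 3. The Matrigel shares on day 5 were 9.80% (5 of 51) in mouse 2 and 13.5% (5 of 37) in mouse 3, and mouse 1 had 0 of 12, for which the exact 95% interval reaches 26.5%.

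**Figure D1:**
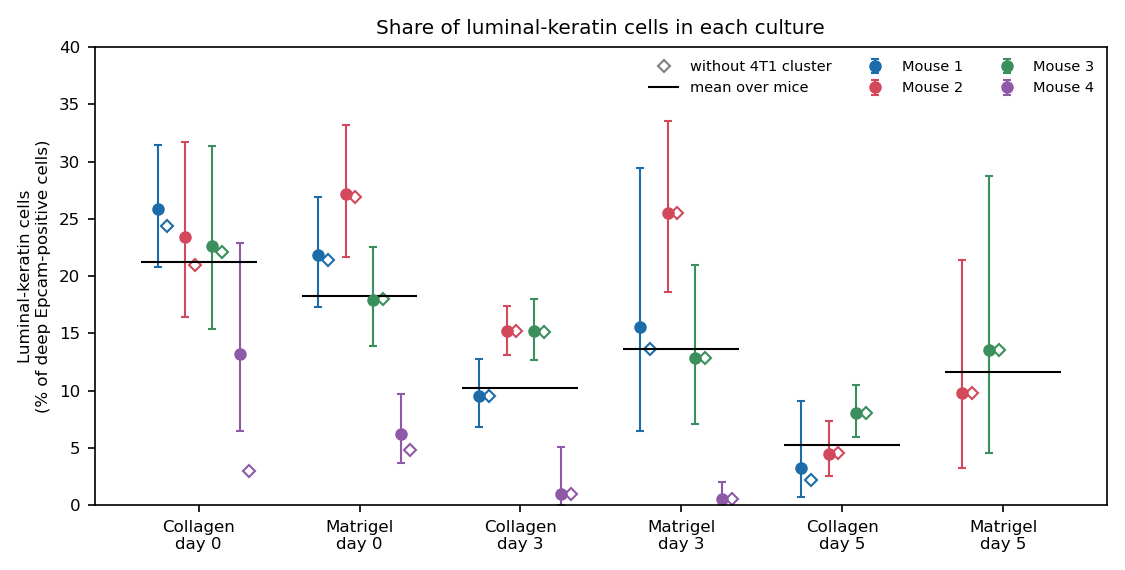
Share of luminal-keratin cells among deep, Epcam-positive cells (percent, y axis) in each matrix and day, with 1 filled point per mouse, its exact 95% interval as a bar and the mean over mice as a black line; open diamonds leave out the cluster of the 4T1 line. Mouse 4 is lowest on days 0 and 3, and its Collagen share on day 0 is 13.2% with and 2.99% without that cluster.

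The shares of Collagen and Matrigel cultures overlapped on days 0 and 3, and on day 5 the 3 Collagen shares lay below the 2 Matrigel shares compared. On day 0 the mean was 21.3% ± 5.57 (SD, n = 4) in Collagen and 18.3% ± 8.91 (n = 4) in Matrigel, so that Collagen minus Matrigel was 2.99 points (p = 0.6 by an exact permutation over mice, two-sided, which cannot go below 0.0286). Without the 4T1 cluster the order turned, with 17.6% ± 9.85 and 17.8% ± 9.37 (difference -0.174, exact permutation p = 0.971). On day 3 the means were 10.2% ± 6.73 and 13.6% ± 10.3 (difference -3.44, exact permutation p = 0.571). On day 5 they were 5.23% ± 2.49 (n = 3) and 11.7% ± 2.62 (n = 2, without mouse 1 and its 12 cells), a difference of -6.43 points, and the exact permutation p of 0.2 cannot go below 0.1 in this design. Adjusted over the 3 comparisons by Benjamini-Hochberg, each p was 0.6. The day 5 difference was -2.40 points after thinning and -0.338 points with a limit of 20 Krt8 and Krt18 UMIs per 10000 in place of 10.

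Compared with Krt14 cells, luminal-keratin cells had lower levels of basal, squamous, contractile and desmosome genes and of several other luminal and epithelial genes, and higher levels of mitotic and p53 target genes. UMIs were summed over at least 10 cells per mouse, matrix, day and gate and compared with edgeR's quasi-likelihood test, and levels of genes are CPM relative to TMM-adjusted totals. The averaged difference covers Collagen on days 0, 3 and 5 and Matrigel on days 0 and 3, with 15 luminal-keratin sums, each from a culture that also gave a Krt14 sum. Krt14 sums of further mice in 3 of these groups, without a luminal-keratin sum, also entered the fit: mouse 4 in Collagen and mice 1 and 4 in Matrigel on day 3, and mouse 1 in Collagen on day 5. Ranges, medians and counts of cultures below are over the 15 cultures, and log2 differences are from the fit. Of 11671 genes tested outside the 5 keratin and Epcam genes of the rule, 1564 (13.4%) had an adjusted p under 0.05 and are called. Of these, 635 (5.44%) were higher and 929 (7.96%) lower in luminal-keratin cells, and the median log2 difference over all genes tested was -0.02. The rule sorts cells on 5 genes, so these tests describe how cells sorted that way differ in other genes. Sums of 1 mouse over days, matrices and gates share an animal. The fit without a mouse block treats them as independent, so its SE and adjusted p do not take this sharing into account. Dropping mouse 1, 2 or 3 left 761, 328 or 835 called genes, where dropping mouse 2 or 3 also left only 3 groups to average. Thinning the cells to equal depth, with the rule applied anew and 4 groups averaged, gave 496 of 9896 (5.01%; 1.74% higher and 3.27% lower). With the mouse as a block 19.5% of genes were called (8.1% higher and 11.4% lower), without the 4T1 cluster 14.6% (5.9% and 8.71%), and without a cluster led by Krt5 and Acta2 10.7% (4.43% and 6.24%). With only the cultures that gave both sums, 980 of 11505 genes were called (8.52%; 3.47% higher and 5.05% lower). There 13 basal, 7 contractile, 8 squamous and 10 desmosome genes were lower, and 12 mitotic and 10 p53 target genes higher. Of the genes named below, Areg, Ly6a, Postn, Cdh2, S100a4, Nrarp, Top2a, Aurka, Gins2, Ifit3, Gbp2, Prdx1, Csf1, Rassf8 and Procr had an adjusted p from 0.0506 (Gins2) to 0.197 (Ifit3) in that fit.

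**Figure D2:**
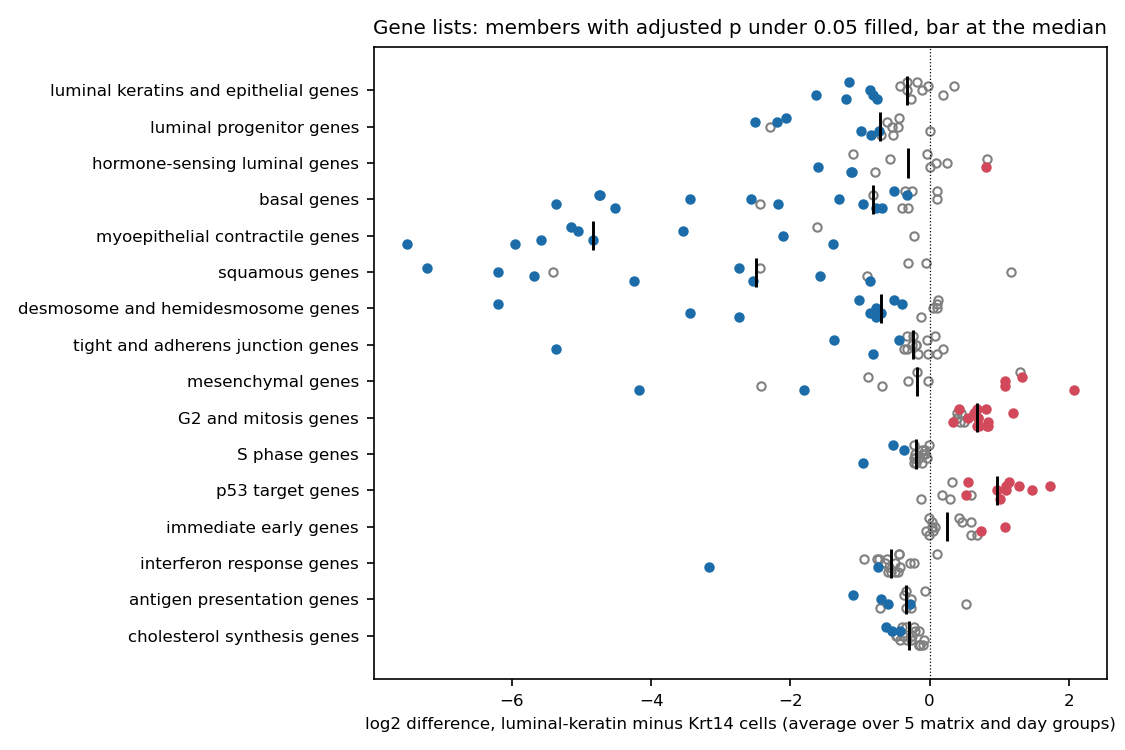
Log2 difference between luminal-keratin and Krt14 cells, averaged over 5 matrix and day groups (x axis), for each tested gene of 16 lists (rows); filled points passed an adjusted p of 0.05 (red higher, blue lower), open points did not, and the black bar is the list's median. Basal, myoepithelial contractile, squamous and desmosome genes lie to the left, and G2 and mitosis genes and p53 target genes to the right.

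Basal genes that the rule did not use were lower in luminal-keratin cells. Of 21 basal genes tested, 13 were lower and 0 higher (median log2 difference -0.81), and their summed level was lower in 15 of 15 cultures. Trp63, which encodes p63 (chr16:25683763-25892102), was at 0 to 4.44 CPM in luminal-keratin cells (median 0.71) and at 2.20 to 70.4 CPM (median 19.5) in Krt14 cells. It was lower in luminal-keratin cells in each of the 15 cultures, and the ranges of the gates overlapped between cultures. The log2 difference was -4.52 (SE 0.47, edgeR adjusted p = 1.88e-07). After thinning, 1.5% of members and 16.9% of Krt14 cells had a Trp63 UMI, against 0.641% of macrophage-like cells. Krt17, a stress and basal keratin, had a median of 144 CPM (28.7 to 505) against 885 CPM (484 to 1670) and was lower in 15 of 15 cultures (-2.57, SE 0.30). Col17a1, a hemidesmosome collagen that anchors basal cells to the basement membrane, had medians of 3.19 and 26.0 CPM (-3.44, SE 0.39, adjusted p = 4.21e-07). Snai2, a transcription factor of basal mammary cells, was at a median of 0.232 CPM against 5.26 CPM, and Cdh3, P-cadherin, at 0 against 5.75 CPM. Sfn, the cell cycle inhibitor 14-3-3 sigma, had medians of 407 and 1062 CPM (-1.30, SE 0.16).

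The contractile genes of myoepithelial cells were lower, and fewer could be tested without 1 cluster of Krt14 cells. Of 11 myoepithelial contractile genes tested, 9 were lower and 0 higher (median -4.84, which includes fitted values of genes with 0 UMIs in whole groups and is no measure of size). Acta2, smooth-muscle actin, was at 0 to 3.23 CPM in luminal-keratin cells. In Krt14 cells it ranged from 0 in mice 3 and 4 of Collagen day 0 to 858 CPM in mouse 2 of Collagen day 5, with a median of 27.7 CPM. It was lower in luminal-keratin cells in 13 of 15 cultures (adjusted p = 9.66e-05). No fold is given, since all 8 luminal-keratin sums of day 0 were at 0. Without cluster 12, the one led by Krt5 and Acta2, 3 contractile genes could still be tested and 1 was lower, and the count of lower basal genes was 7 of 20.

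Squamous genes, which mark keratinising cells, were lower with or without that cluster (8 of 14 tested with it, 7 of 13 without it; medians -2.49 and -2.41). Krt6a, a keratin of activated and squamous epithelia (chr15:101689910-101694307), separated the gates without overlap in the 15 cultures. In Collagen on day 0 its level was 3.52, 0, 2.62 and 10.5 CPM in luminal-keratin cells of mice 1 to 4 and 387, 201, 275 and 438 CPM in Krt14 cells. In Matrigel on day 0 it was 0.95, 14.0, 0 and 0 CPM against 233, 363, 85.9 and 270 CPM. On days 3 and 5 luminal-keratin cells ranged from 1.05 to 19.4 CPM and Krt14 cells from 56.3 to 508 CPM. Every luminal-keratin sum was thus below every Krt14 sum of these cultures (-5.69, SE 0.52, adjusted p = 1.21e-08). Krt16, its usual partner, had medians of 17.9 and 254 CPM (-2.54), and the desmosomal cadherin Dsg3 1.89 and 17.2 CPM (-2.74, SE 0.29, lower in 15 of 15 cultures). The secreted cornification gene Krtdap was at a median of 0 against 5.79 CPM.

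**Figure D3:**
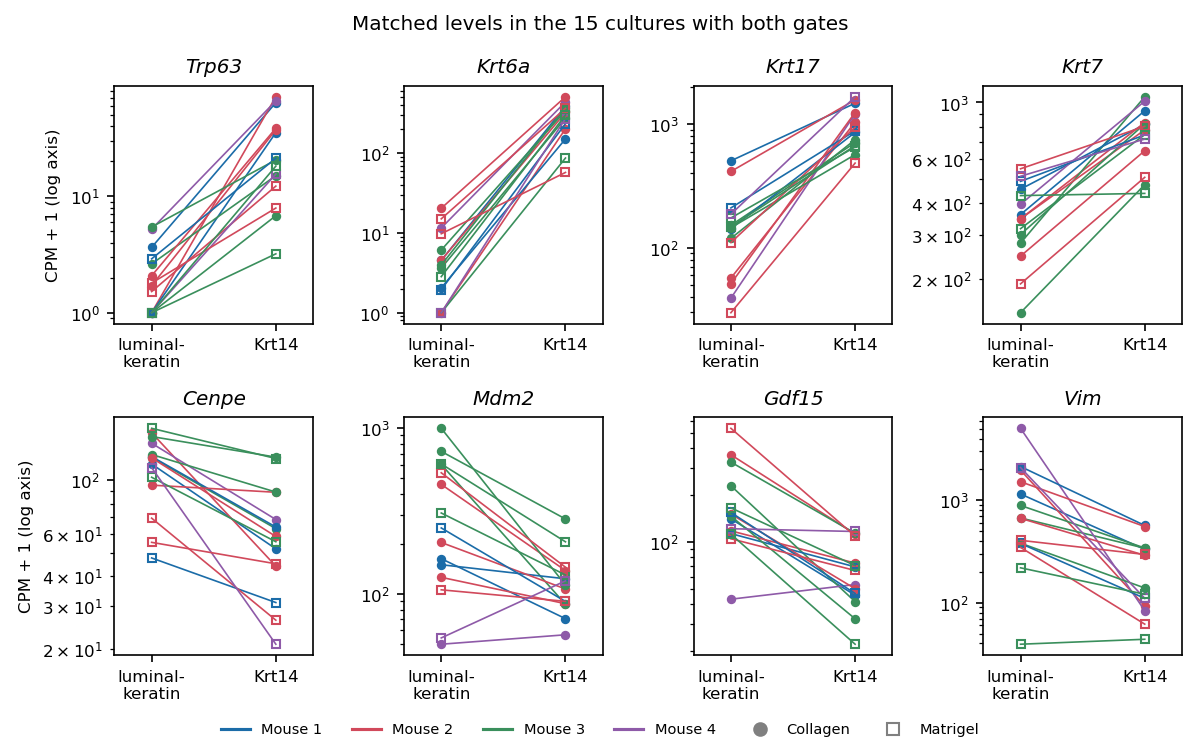
Levels of 8 genes (CPM + 1, log axis) in luminal-keratin and Krt14 cells of the same culture, with a line for each of 15 cultures, coloured by mouse, filled circles for Collagen and open squares for Matrigel. Trp63, Krt6a, Krt17 and Krt7 fall to the left in each culture, Cenpe is higher in luminal-keratin cells in each, and the mouse 4 lines of Mdm2 run the other way.

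Among luminal keratins and epithelial genes that the rule did not use, those called were lower in luminal-keratin cells. Of 15 tested luminal keratins and epithelial genes, 0 were higher and 6 lower (median -0.33). Krt7, a further type II keratin of simple epithelia (chr15:101411043-101430313), was at 146 to 545 CPM (median 345) in luminal-keratin cells and at 436 to 1052 CPM (median 778) in Krt14 cells. It was lower in 15 of 15 cultures, by the least in mouse 3 of Matrigel day 3 (427 and 436 CPM). The log2 difference was -1.16 (SE 0.11, edgeR adjusted p = 1.21e-08). Cdh1, E-cadherin, had medians of 58.2 and 85.2 CPM (-0.82, SE 0.13, lower in 15 of 15), and the luminal mucin Muc1, the surface protein Cd24a, the keratin Krt80 and the vesicle GTPase Rab25 were also lower (-1.63, -0.76, -1.20 and -0.85). Krt19, a further simple keratin, had medians of 53.7 and 46.9 CPM and did not pass (-0.43, adjusted p = 0.27).

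Of 14 luminal progenitor genes, 0 were higher and 6 lower (median -0.71), with 3 lower without the 4T1 cluster, 1 after thinning and 9 with the mouse as a block. Elf5, the transcription factor of alveolar progenitors, was at medians of 2.11 and 7.41 CPM (-2.19, SE 0.53, adjusted p = 0.00581), and Wfdc18, a secreted protease inhibitor, at 60.3 and 139 CPM (-2.51). Aldh1a3, a retinaldehyde dehydrogenase, had a difference of -0.85 with an adjusted p of 0.0322, and of 0.089 without the 4T1 cluster. Of 12 hormone-sensing luminal genes, 1 was higher and 3 lower (median -0.31). The estrogen receptor gene Esr1 (medians 1.11 and 0.94 CPM), its partner Foxa1 (2.39 and 1.48 CPM) and Gata3 (41.6 and 39.0 CPM) did not pass. The prolactin receptor gene Prlr (-1.60), Wnt4 (-1.11) and Ly6a (-1.13) were lower. Areg, the growth factor amphiregulin, was higher (medians 882 and 712 CPM, 0.81, adjusted p = 0.0353, higher in 10 of 15 cultures), but not with only the cultures that gave both sums (0.58, adjusted p = 0.14). None of 8 milk and secretory genes tested was called, and Spp1, osteopontin, the most abundant, had medians of 3529 and 2814 CPM (0.48, adjusted p = 0.148).

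Mammary lineage transcription factors were lower where they differed. Of 21 tested, 0 were higher and 6 lower (median -0.27): Trp63, Snai2 and Elf5, given above, with Sox9, a progenitor factor (medians 80.0 and 149 CPM, -0.88), the basal-like factor Foxc1 (-0.53) and Id4 (-0.89). In the Notch pathway, Rbpj, the DNA-binding partner of activated Notch, was higher in 15 of 15 cultures (medians 108 and 58.6 CPM, 1.02, SE 0.14, adjusted p = 8.29e-06), as was the target Nrarp (0.47), whereas the ligands Jag1 (-0.95) and Jag2 (-0.77), the modifier Lfng (-1.08) and the target Hey1 were lower. That made 2 higher and 4 lower of 11 Notch pathway genes. Of 16 Wnt pathway genes 4 were lower (7 with the mouse as a block) and 0 higher, including the receptor Lgr4 (-1.21, SE 0.15) and the inhibitor Sfrp1 (-1.56).

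Genes of desmosomes were lower in luminal-keratin cells. Of 15 desmosome and hemidesmosome genes 10 were lower and 0 higher (median -0.69; 7 lower without cluster 12), including the desmoglein Dsg2 (medians 27.5 and 49.3 CPM, -1.02, SE 0.14) and plakoglobin, Jup (57.2 and 104 CPM, -0.78). Of 17 tight and adherens junction genes, 4 were lower and 0 higher (median -0.24): Cdh1, Cdh3, the tight junction gene Cldn1 (-1.37) and beta-catenin, Ctnnb1 (-0.44). Of 14 basement membrane genes, 1 was lower and 0 higher (median -0.18). The difference between these lists was not tested.

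Genes of G2 and mitosis were higher in luminal-keratin cells. Of 19 G2 and mitosis genes, 14 were higher and 0 lower (median 0.68), and their summed level, with medians of 2452 and 1314 CPM, was higher in 14 of 15 cultures. Cenpe, a kinetochore motor (chr3:135212537-135273611), was at 46.6 to 163 CPM (median 123) in luminal-keratin and 19.9 to 124 CPM (median 57.4) in Krt14 cells. It was higher in each of the 15 cultures, with overlap between cultures (0.80, SE 0.17, adjusted p = 0.00168). Ube2c, a ubiquitin-conjugating enzyme of the anaphase-promoting complex, showed the largest difference of the list (83.6 to 722, median 458, against 27.6 to 494, median 134 CPM; 1.19, SE 0.26). The spindle assembly factor Tpx2 (medians 89.6 and 51.4 CPM, 0.69) and the checkpoint kinase Bub1 (45.5 and 25.1 CPM, 0.64) were higher in 15 of 15 cultures. Mki67 (0.42), Top2a (0.34), Ccnb1 (0.83), Aurka (0.84), Kif11 (0.70) and Cdc20 (0.55) also passed, and Ccnb2, Cdk1, Aurkb, Kif20a and Birc5 did not. After thinning, 41.8% of members and 27.8% of Krt14 cells had a Cenpe UMI, and the count called was 15. The 4T1 cluster moved with this result: without it 9 of the 19 passed (median 0.55), and with the mouse as a block 18 did.

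S phase genes were lower where they differed. Of 17 S phase genes, 0 were higher and 3 lower (median -0.19). Ccne1, cyclin E1, was lower in 15 of 15 cultures (medians 14.97 and 27.5 CPM, -0.96, SE 0.16). The replication helicase subunit Mcm5 (148 and 191 CPM, -0.37) and the replication gene Gins2 (45.8 and 64.8 CPM, -0.53) were the other lower genes.

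Promoters of the mitotic list are shown because its members moved together and many carry the cell cycle genes homology element, a short motif known to bind repressor and activator complexes of late cell cycle genes. RefSeq promoters (GRCm38.p6, 300 bases, from 250 before to 50 after the annotated start) matched 16 of the 19 genes. The motif TTTGAA, searched on either strand, was in 12 of the 16 (75%), in 20.2% of promoters of 27025 genes, in 13.8% of promoters of 9098 tested genes and in 18.7% of promoters of 497 genes called higher. The 60 bases just before the start held it in 5 of the 16, against 3.75% of all genes. The stretches of 4 of these 5, those called higher, are printed 5′ to 3′ on the gene's strand, with the motif or its reverse complement TTCAAA in capitals. A match is a description and not a tested site.
Top2a: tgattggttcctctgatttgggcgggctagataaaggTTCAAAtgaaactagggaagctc
Kif11: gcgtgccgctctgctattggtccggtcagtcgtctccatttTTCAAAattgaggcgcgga
Cdc20: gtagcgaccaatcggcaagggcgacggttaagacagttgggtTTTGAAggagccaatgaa
Ube2c: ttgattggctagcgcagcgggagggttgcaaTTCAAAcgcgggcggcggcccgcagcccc
These stretches lie at chr11:99024190-99024249 (minus strand), chr19:37376322-37376381 (plus), chr4:118437344-118437403 (minus) and chr2:164769869-164769928 (plus). The first base of the motif lies 18 to 29 bases before the start. Cenpe and Bub1, higher in 15 of 15 cultures, had no match in their 300 bases, so not every gene that was higher held it in this window.

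Most p53 target genes of the list used here were higher in luminal-keratin cells, and the counts hold for that list only. Of 15 p53 target genes, 10 were higher and 0 lower (median 0.96), and their summed level was higher in 11 of 15 cultures (medians 2562 and 1567 CPM). Mdm2, the ubiquitin ligase that p53 induces and that degrades it (chr10:117688875-117710758), was at 161, 124 and 601 CPM in luminal-keratin cells of mice 1 to 3 in Collagen on day 0 and at 69.6, 85.9 and 85.2 CPM in Krt14 cells. Mouse 4 ran the other way, with 48.5 and 55.4 CPM there and 53 and 118 CPM in Matrigel. On day 3 in Collagen the 3 mice had 148, 455 and 720 CPM against 122, 137 and 281 CPM. Over the 15 cultures Mdm2 was higher in 13 (1.72, SE 0.28, adjusted p = 0.000117). Gdf15, a stress cytokine, was higher in 14 cultures (medians 146 and 65.0 CPM, 1.47, SE 0.22), Bax, which permeabilises mitochondria, in 15 (264 and 208 CPM, 0.53), and Cdkn1a, the cyclin kinase inhibitor p21, in 12 (697 and 368 CPM, 1.01). Ccng1 (1.14), Trp53inp1 (1.28), Sesn2 (1.09), Bbc3 (0.96), Zmat3 (0.55) and Btg2 (1.10) also passed, and Pmaip1, Phlda3, Eda2r, Aen and Plk2 did not. The count was 10 without the 4T1 cluster as well, and 8 of 14 after thinning. In the transgenic model large T antigen binds p53, which is background and was not measured here.

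Vim, the mesenchymal filament gene vimentin (chr2:13573927-13582826), was called higher in luminal-keratin cells with the 4T1 cluster, and without it the difference was smaller and not called. Its level was 38.3 to 5047 CPM (median 672) against 43.0 to 567 CPM (median 138), higher in 14 of 15 cultures, with its highest value in mouse 4 of Collagen day 0, where 8 of 10 members lay in that cluster. Pooled Vim was 582 CPM in members outside the cluster and 284 CPM in Krt14 cells. The log2 difference was 2.07 (SE 0.40, edgeR adjusted p = 0.000697) with the cluster and 0.90 (edgeR adjusted p = 0.0625) without it. The lectin gene Lgals1 and the calcium-binding S100a4 changed in the same way, from 1.32 to 0.21 (adjusted p = 0.271) and from 1.07 to -0.11 (adjusted p = 0.823). Zeb2, a transcriptional repressor of E-cadherin, passed with and without it (1.09, adjusted p = 0.00182, and 0.89, adjusted p = 0.013). The matrix protein Postn (-4.17) and N-cadherin, Cdh2 (-1.80), were lower. Of 13 mesenchymal genes, 4 were higher and 2 lower, and without the cluster 1 and 3.

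**Figure D4:**
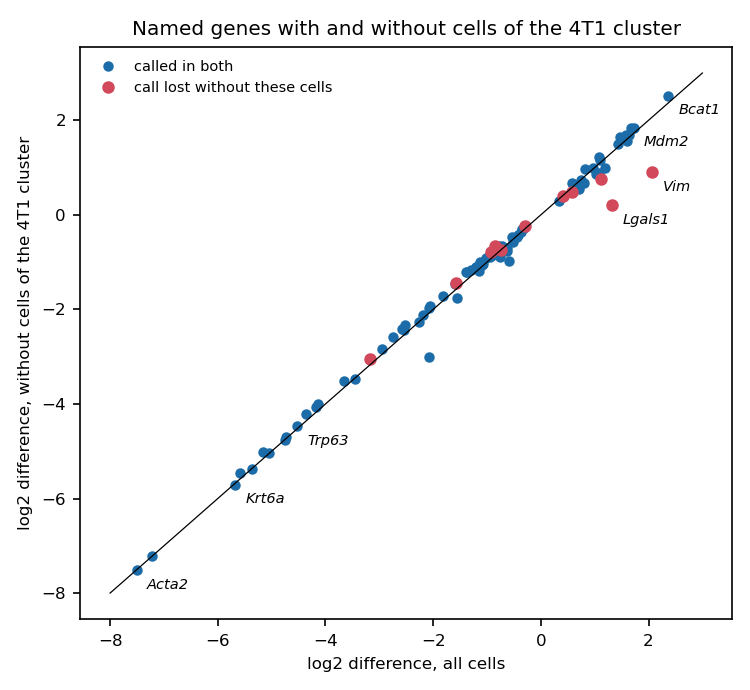
Log2 difference between luminal-keratin and Krt14 cells for the named genes that passed, with all cells (x axis) and without the cluster of the 4T1 line (y axis); the line marks equal values and red points lost their call. Vim and Lgals1 lie far under the line, and Acta2, Krt6a, Trp63, Mdm2 and Bcat1 lie near it.

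The remaining lists differed in their shares of called genes. In the fit with all cells and no mouse block, those of interferon response, hypoxia and chemokine genes lay near the shares over all genes (5.44% higher and 7.96% lower). Antigen presentation and TGF-beta target genes had a larger share lower, and EGF family genes a larger share higher. Of 14 immediate early genes, Egr1 (medians 475 and 190 CPM, 1.09, SE 0.21, higher in 14 of 15 cultures) and Fosl1 (177 and 91.8 CPM, 0.74) were higher and 0 were lower (median 0.25). Of 19 interferon response genes, 2 were lower and 0 higher, Ifit3 and Gbp2 (median -0.55). With the mouse as a block 13 of the interferon genes were lower (against 11.4% of all genes), and without the 4T1 cluster 0 were. Their summed level was lower in 13 of 15 cultures. Of 12 antigen presentation genes, 4 were lower (8 with the block) and 0 higher, among them the immunoproteasome subunits Psmb8 (medians 127 and 247 CPM, -0.70) and Psmb9 (17.3 and 40.6 CPM, -1.10). Of 20 cholesterol synthesis genes, 3 were lower, Mvd, Hsd17b7 and Dhcr7, and 11 without the 4T1 cluster. Of 15 TGF-beta target genes, 4 were lower and 1, Tgfb1 itself, higher, and those lower included Pmepa1 (medians 434 and 712 CPM, -0.73, lower in 15 of 15) and Ctgf (17.1 and 68.6 CPM, -2.26). Of 21 hypoxia and glycolysis genes, 2 were higher and 2 lower, and without the 4T1 cluster 1 and 8 (against 5.9% and 8.71% of all genes). Of 12 oxidative stress genes 2 were lower, Gsr (-0.36) and Prdx1 (-0.32). Among EGF family and receptors (10 tested), Areg and Hbegf (0.60) were higher and Epgn (-1.82) lower, and of 15 chemokines and secreted immune factors Csf1 (0.57) was higher and Ccl2 (-2.08) lower.

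Outside the lists, the highest called genes by the naming rule were Bcat1, an amino acid transaminase (medians 39.8 and 12.2 CPM, 2.37, SE 0.54), Rassf8 (171 and 88.7 CPM, 1.67), Klhl42 (61.4 and 21.1 CPM, 1.63), the protein C receptor Procr (19.9 and 7.56 CPM, 1.60), Psrc1, a microtubule protein (26.7 and 6.36 CPM, 1.58), Sspn, sarcospan (20.2 and 7.89 CPM, 1.56, higher in 15 of 15 cultures), and Txnip, an inhibitor of thioredoxin (33.8 and 14.1 CPM, 1.42). Bcat1 was higher in 9 of 15 cultures and was not detected in 1 or more luminal-keratin sums. The lowest outside the lists were the serine protease Klk7, which cleaves desmosomes in cornified epithelium (0.519 and 30.3 CPM, lower in 13 of 15), the cytokine Il17b (0.697 and 20.0 CPM, -4.35), the keratin Krt79 (1.80 and 17.8 CPM, -3.66, lower in 15 of 15) and the growth factor-binding protein Igfbp5 (2.99 and 46.7 CPM, -2.95).

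Within a single matrix and day fewer genes passed, and no difference between these groups was tested. In Collagen on day 0 (4 mice) 232 genes were called (1.99%; 105 higher, 0.9%, and 127 lower, 1.09%), and 823 with the mouse as a block. Krt6a (-6.58, SE 1.05), Trp63 (-4.88), Col17a1 (-4.39), Krt16 (-4.05) and the palmitoylated protein Palmd (-3.58) led the lower genes, and only Krt16 lost its call without the 4T1 cluster (adjusted p = 0.127). The highest called genes were Hoxa5 (5.02), Glrp1 (4.62), Apbb1ip (4.18), Eno3 (3.62) and Steap1 (3.57). Without the cluster none of the 5 was called (Hoxa5 4.43 with an adjusted p of 0.147, Glrp1 1.27, Eno3 0.49, Steap1 0.40, Apbb1ip not tested), and 42 genes (0.358%) were called in all. In the pooled 4T1 line Hoxa5, Glrp1, Eno3 and Steap1 stood at 59.7, 153, 220 and 125 CPM, and in members outside the cluster at 2.97, 4.04, 4.97 and 9.05 CPM. Leaving out mouse 1, 2 or 4 gave 35, 5 or 80 called genes. In Matrigel on day 0 (4 mice) 31 genes were called (0.266%; 8 higher, 0.0685%, and 23 lower, 0.197%), 203 with the block and 10 (0.0853%) without the 4T1 cluster. Lower were Krt6a (-5.71, SE 0.95), Krt17 (169 ± 42.8 against 1038 ± 439 CPM, -2.62), Dynap (-2.77), Cwh43 (-2.59) and the annexin Anxa8 (-2.02), and the last 3 had adjusted p of 0.0858, 0.0811 and 0.0696 without the cluster. The mitotic genes Cenpa (153 ± 70.2 against 45.1 ± 13.5 CPM, 1.73), Cdc20 (1.3) and Kif11 (1.14) were higher with the 4T1 cluster. Without it their differences were 1.28, 1.15 and 1.10, with adjusted p of 0.189, 0.214 and 0.0811. With only the cultures that gave both sums, which leaves out no sum of this group, 8 genes were called. Krt17, Dynap and Anxa8 then each had an adjusted p of 0.0661, Cdc20 of 0.0724 and Kif11 of 0.0565. Dropping mouse 1, 2, 3 or 4 gave 0 (edgeR, with 792 at an unadjusted p under 0.05), 1, 19 or 2 called genes.

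In Collagen on day 3, where mice 1, 2 and 3 had enough members, 72 genes were called (0.617%; 10 higher, 0.0857%, and 62 lower, 0.531%), 315 with the block and 14 without cluster 12. The Krt14 sums also included mouse 4, which is not in the means that follow. Acta2 was at 1.86 to 2.98 CPM in the 3 luminal-keratin sums against 60.4 to 707 CPM in the 4 Krt14 sums (-6.97). Wfdc18 was at 1.38 ± 0.327 against 87.0 ± 40.7 CPM (-5.62), and Postn, Krt6a and Trp63 had differences of -6.22, -6.11 and -5.24. Few genes were higher. The stress-induced transcription factor Ddit3 (CHOP) was at 50.3, 55.1 and 124 CPM in luminal-keratin cells against 17.6, 27.1, 31.6 and 21.1 CPM in Krt14 cells of mice 1 to 4, and every luminal-keratin value lay above every Krt14 value (1.64, SE 0.28, adjusted p = 0.00358). The phosphatase subunit Ppp1r15a (79.2 ± 29.2 against 30.3 ± 3.52 CPM, 1.44), the cytokine Lif (35.3 ± 4.73 against 14.2 ± 1.43 CPM, 1.36), Ptprn (2.70) and the mitochondrial carrier Slc25a33 (0.91) were also higher. With only the cultures that gave both sums, Ppp1r15a, Lif and Slc25a33 had adjusted p of 0.0889, 0.0859 and 0.0567. Dropping mouse 1, 2 or 3 left 2, 2 or 25 called genes.

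In the other groups luminal-keratin sums came from 2 mice and Krt14 sums from more. In Matrigel on day 3 (members of mice 2 and 3, 36 and 13 cells, against Krt14 cells of all 4 mice) 65 genes were called (0.557%; 42 higher, 0.36%, and 23 lower, 0.197%), 252 with the block and 10 without mouse 1, which gave a Krt14 sum only. With only the cultures that gave both sums 1 gene was called. The tissue inhibitor Timp3 (30.8 ± 18.7 against 177 ± 65.7 CPM in mice 2 and 3, -2.60), Rassf4 (-3.96) and Rflnb (-3.04) were lower, with adjusted p of 0.126, 0.103 and 0.136 in those cultures alone. Of the higher genes, Amy1 rested on 167 UMIs of 1 cell of mouse 3, Car6 on 118 UMIs of 1 cell and Hp on 124 UMIs of 1 cell of mouse 2, so no fold is given for them. Cd68, a macrophage marker, stood at 20.7 and 20.2 CPM in mice 2 and 3 against 1.73, 6.92, 2.04 and 0.327 CPM in Krt14 cells of mice 1 to 4 (3.12, SE 0.76, adjusted p = 0.0496, and 2.25 with an adjusted p of 0.357 in the cultures with both sums), with 12 of its 26 UMIs in mouse 2 and 7 of its 11 in mouse 3 in 1 cell each. In Collagen on day 5 (members of mice 2 and 3, 15 and 48 cells, against Krt14 cells of mice 1 to 3) 8 genes were called (0.0685%; 1 higher, 0.00857%, and 7 lower, 0.06%), 126 with the block, 2 without mouse 1 and 51 without mouse 4. Krt7 was at 246 and 146 CPM in mice 2 and 3 against 687, 643 and 472 CPM in Krt14 cells of mice 1 to 3 (-1.63), and the actin-sequestering Tmsb4x (752 ± 243 against 3021 ± 888 CPM in mice 2 and 3, -2.11), the copper enzyme Moxd1 (-4.16), Palmd (-3.03) and the retinol dehydrogenase Rdh10 (-1.69) were lower. Gfod1 (1.53) was higher. With only the cultures that gave both sums, Tmsb4x and Rdh10 had adjusted p of 0.103 and 0.114. Matrigel on day 5, with 0, 5 and 5 members, was too small for a comparison.

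Between matrices, luminal-keratin cells differed on day 0 in antioxidant genes. Of 11671 genes, 24 (0.206%) were called for Collagen against Matrigel, 9 higher (0.0771%) and 15 lower (0.129%). With the mouse as a block 359 were called, and without the 4T1 cluster 36 (0.307%). Hmox1, the heme oxygenase of the oxidative stress response (chr8:75093621-75100589), was at 171, 122, 76.1 and 33.7 CPM in Collagen and at 482, 675, 523 and 693 CPM in Matrigel in mice 1 to 4. Every Collagen value was below every Matrigel value (101 ± 59.2 against 593 ± 106 CPM, -2.50, SE 0.39, edgeR adjusted p = 0.00506). Gclm and Gclc, which encode the subunits of the enzyme that starts glutathione synthesis, were lower as well, at 214 ± 71.9 against 576 ± 191 CPM (-1.43) and 45.3 ± 8.66 against 119 ± 38.4 CPM (-1.33). That made 3 lower and 0 higher of 12 oxidative stress genes (median -1.03, against -0.01 over all genes). Slpi, a secreted protease inhibitor, was at 504 ± 120 against 1849 ± 610 CPM (-1.87), and Dgcr8, of the microRNA processing complex, at 18.2 ± 5.79 against 41.0 ± 5.32 CPM (-1.17). Higher in Collagen were Lix1l (33.8 ± 14.6 against 9.62 ± 6.35 CPM, 1.99), Gpsm3 (1.62), Mettl26 (1.14), Pbx2 (1.13) and Tmem176b (1.06). Without the 4T1 cluster Pbx2 kept its call (adjusted p = 0.0202), and the other 4 had adjusted p of 0.14, 0.061, 0.0872 and 0.219. The 5 genes lower in Collagen kept theirs. Leaving out mouse 1, 2, 3 or 4 gave 3, 0 (edgeR, with 955 at an unadjusted p under 0.05), 1 or 118 called genes.

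**Figure D5:**
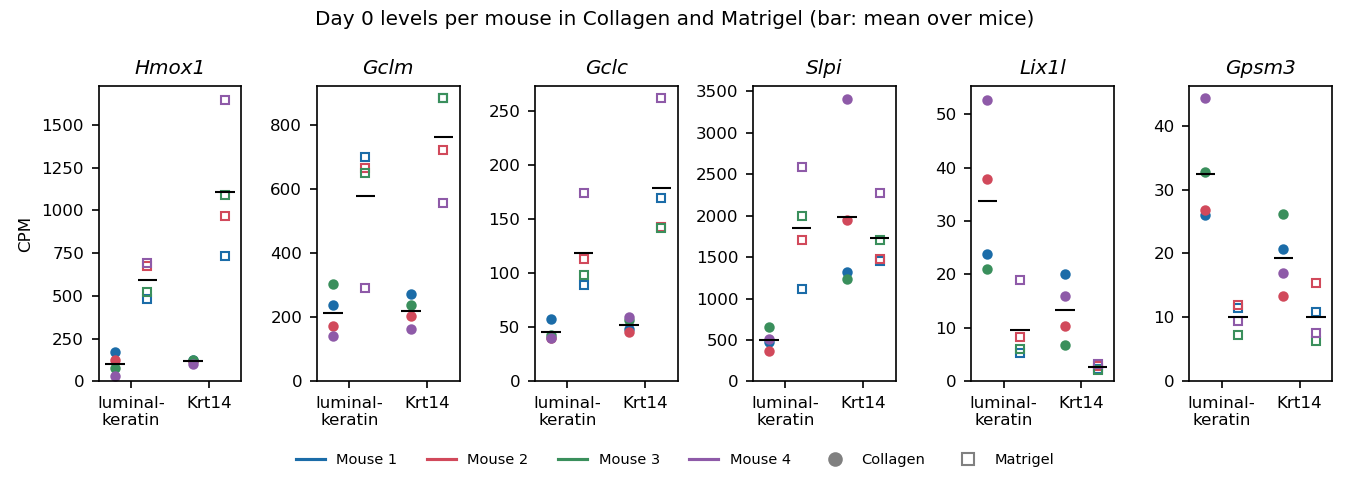
Day 0 levels (CPM, y axis, separate for each gene) of 6 genes in luminal-keratin and Krt14 cells, with filled circles for Collagen, open squares for Matrigel, a colour per mouse and a bar at the mean over mice. Hmox1, Gclm and Gclc are lower in Collagen in both gates, and Slpi values of the matrices do not overlap in luminal-keratin cells and overlap in Krt14 cells; that change between gates did not pass its test.

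Krt14 cells showed the same matrix difference for Hmox1, at 127, 119, 125 and 104 CPM in Collagen and 735, 967, 1091 and 1647 CPM in Matrigel. Slpi in Krt14 cells stood at 1324, 1947, 1231 and 3413 CPM in Collagen and at 1451, 1483, 1708 and 2274 CPM in Matrigel. Whether the matrix difference changed between the gates was tested for all genes over days 0 and 3. Of 11671 genes 0 (0%) were called by edgeR, with 491 at an unadjusted p under 0.05, and DESeq2 called 2 and the fit with a mouse block 1. Without the 4T1 cluster the fit with the block called 2, so a change of the matrix difference between the gates was not detectable in the edgeR fit without the block. On day 3 the matrices differed in 8 genes in luminal-keratin cells (0.0685%; 1 higher, 0.00857%, and 7 lower, 0.06%; 29 with the block), which included Amy1 and Car6 and their single cells. Mms22l, a replication repair gene, was the 1 higher in Collagen (35.2 ± 8.66, n = 3, against 9.13 ± 5.13 CPM, n = 2; 1.78). No comparison of matrices could be made on day 5.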

How the data were processed

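Unnormalised UMI counts were deposited for 20605 genes in 7620 cells (39668312 entries, all whole numbers), and the deposited annotation gives each cell's day, mouse, matrix and mitochondrial fraction. Cell Ranger 3.0.2, Scanpy 1.4.4 and GRCm38/mm10 appear, without roles, in the submitters' processing notes. The annotation release and any filter on cells before deposit are not given in the sources used here. No doublet caller was run. Gene coordinates are from GENCODE vM21, which holds 20588 of the identifiers.

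The members, gene lists and rules were chosen with earlier results of these data known. Sums of UMIs per mouse, matrix, day and gate with at least 10 cells (36 sums, 15 luminal-keratin and 21 Krt14, of 10 to 577 cells and 511158 to 22789463 UMIs) entered 1 fit with 11 groups in edgeR 4.0.16 (R 4.3.3; TMM, filterByExpr, quasi-likelihood F test, Benjamini-Hochberg within a comparison, threshold 0.05; common dispersion 0.0755, 0.0324 with a mouse block). Standard errors are the log2 difference over the square root of F. The labels use the same animals on each day, so the mouse number pairs the sums: deviations of 1 mouse's sums correlated with a median of 0.203 (-0.000273 to 0.715, 153 pairs; other mice -0.0728), and for 35 of the 36 the closest match was a sum of the same mouse. Over 45 replicate pairs the chi-square divided by its degrees of freedom was 4.33 to 38.7, above counting noise. On counts simulated for 11175 genes, 91% of 2-fold and 100% of 4-fold changes were recovered with 16 false calls. The simulated sums were independent, with 1 dispersion (0.0755) for all genes and no mouse, matrix or day effect. The real sums correlate within a mouse, so these rates need not hold for them.

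Named genes were the 10 highest and 10 lowest called in the averaged difference with at least 20 CPM in a gate and the same sign in each group (5 and 5 in other comparisons, same sign in each mouse), without the rule's genes and predicted, mitochondrial and ribosomal genes; up to 4 members of each list with the smallest p; and 13 state markers (Vim, Trp63, Krt17, Krt19, Krt7, Elf5, Gata3, Foxa1, Esr1, Kit, Cdh1, Snai2, Mki67). Other list members were named after their values were seen. Clusters came from 2000 variable genes, 30 principal components, 15 neighbours and Leiden at resolution 1.0 (Scanpy 1.11.5, leidenalg 0.10.2). Intervals of shares are exact (Clopper-Pearson) and cover counting error only. Alternatives were a mouse block, leaving out each mouse, the 4T1 cluster or non-epithelial clusters, thinning to 10000 UMIs, sums of at least 20 cells, no filter on low counts and DESeq2 1.42.0. For the shares, a limit of 20 Krt8 and Krt18 UMIs per 10000 and a denominator of all deep cells were also used. Added after seeing the data were the block without the 4T1 cluster, Krt14 cells limited to at least 10 Krt8 and Krt18 UMIs per 10000, leaving out the cluster led by Krt5 and Acta2, and leaving out Krt14 sums of cultures with no luminal-keratin sum.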

Additional observations from a re-analysis of the deposited data

Results flagged for a closer look

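Each value here, except the last, was flagged by Dixon's test at 95%, which sets 1 mouse against the other 3 of its group. Of 44 groups of 4 values tested, 9 were flagged. Where the other 3 mice are at 0, the test flags any value above 0, however small. The flags of Myl9 and Il17b are of this kind and cannot tell an outlying mouse from a few UMIs. For this reason the count of flags is not compared with a rate expected by chance. On day 0 in Matrigel, Krt6a was at 14.0 CPM in mouse 2 and at 0, 0 and 0.95 CPM in the others, all far below Krt14 cells. The contractile gene Myl9 was at 1.31 CPM in mouse 3 of Collagen day 0 and at 0.475 CPM in mouse 1 of Matrigel day 0, and at 0 in the others. Il17b was at 4.28 CPM in mouse 1 of Matrigel day 0 and at 0 in the others. The protease gene Klk7 was highest in mouse 1 of both day 0 cultures, at 14.96 CPM in Collagen (others 0, 0 and 0.995) and 6.18 CPM in Matrigel (others 0, 0 and 0.519). Igfbp5 was also highest in mouse 1 of Collagen day 0, at 32.6 CPM against 0, 0 and 2.99. Col17a1 was at 6.33 CPM in mouse 4 of Collagen day 0, against 0.995, 1.31 and 1.76, in a sum of 10 cells. Procr was at 123 CPM in mouse 3 of Matrigel day 0 and at 3.64, 17.0 and 19.5 CPM in the others. The last value is a signal in cells outside the cultures: 69.5% of deep, Epcam-positive cells of the 4T1 line met the luminal-keratin rule.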

How the results depend on the processing

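The mouse is both replicate and pair, and the paired fits are given as the replicate block. With the block the averaged difference called 2281 genes, and 2485 with the block and without the 4T1 cluster. For Collagen day 0, Matrigel day 0, Collagen day 3, Matrigel day 3 and Collagen day 5 the block gave 823, 203, 315, 252 and 126 called genes, and 355, 130, 392, 380 and 156 without the 4T1 cluster as well. For the matrix difference in luminal-keratin cells it gave 359 and 29 genes on days 0 and 3 (317 and 45 without the cluster), and for its change between gates 1 (2 without the cluster). The block ended no call among the 92 called of the 115 named genes. Paired by mouse, the shares gave exact permutation p of 0.25, 0.5 and 0.5.

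Leaving out each mouse gave 328 to 1637 called genes for the averaged difference, 5 to 225 for Collagen day 0, 0 to 19 for Matrigel day 0, 2 to 87 for Collagen day 3, 10 to 79 for Matrigel day 3, 2 to 51 for Collagen day 5, and 0 to 118 and 0 to 9 for the matrix difference on days 0 and 3 (at 0 called, 955 and 422 genes had an unadjusted edgeR p under 0.05). Thinning gave 496, 22, 14, 23 and 0 genes for the averaged difference, Collagen day 0, Matrigel day 0, Collagen day 3 and Collagen day 5 (650 at an unadjusted edgeR p under 0.05 in the last). DESeq2 gave 429, 112, 117, 167 and 54 for Collagen day 0, Matrigel day 0, Collagen day 3, Matrigel day 3 and Collagen day 5, 125 for the day 0 matrix difference and 2 for its change. With Krt14 cells limited to those of at least 10 Krt8 and Krt18 UMIs the counts in that order of groups were 134, 4, 19, 29 and 5, and 14 for the day 0 matrix difference. Without the 4T1 cluster they were 42 and 10 on day 0 and 21 for Collagen day 5. Without the cluster led by Krt5 and Acta2, Matrigel day 0, Collagen day 3 and Collagen day 5 had 4, 14 and 4. With only the cultures that gave both sums, the averaged difference, Matrigel day 0 and Matrigel day 3 had 980, 8 and 1. Sums of at least 20 cells gave 129 and 15 on day 0, and no filter on low counts gave 23 for Collagen day 5 and 12 for the day 0 matrix difference. The day 0 difference in shares reversed to -0.174 points without the 4T1 cluster, paired or not. It was 1.66 to 5.23 without 1 mouse, and the day 3 difference without 1 mouse was -5.36 to -1.13. The day 5 difference was -5.41 without mouse 1. Mouse 4 had no cells that day, and leaving out mouse 2 or 3 left too few mice for a comparison. After thinning the differences on days 0, 3 and 5 were 3.18, -1.94 and -2.40 points. With at least 20 Krt8 and Krt18 UMIs per 10000 they were 0.791, -3.56 and -0.338 points. With all deep cells as the denominator they were 2.89, -3.00 and -6.59 points.

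None of the 92 called genes of the naming rule reversed in a setting where it was tested. S100a4, a list member named after its values were seen, changed sign without the 4T1 cluster, as given above. Of the 92 called, 81 kept their call without the 4T1 cluster, 53 after thinning, 64 with at least 20 cells, 91 with DESeq2, 90 without the filter, 78 with limited Krt14 cells, 73 without the cluster led by Krt5 and Acta2, 77 with only the cultures that gave both sums, and 65, 42, 59 and 84 without mouse 1, 2, 3 and 4. The cause of a changed count was not tested. Matrigel day 3 could not be formed with thinned or larger sums, nor several day 3 and day 5 comparisons without mouse 2 or 3. Small sums limit depth: genes under a few CPM rest on few UMIs.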

Other observations

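Genes higher in luminal-keratin cells were unevenly placed along the genome. Among 212 windows of 10000000 bases with at least 20 tested genes, the window with the largest share of genes called higher in the averaged difference was chr6:140000001-150000000. There 17 of 56 genes (30.4%) were higher and 0 lower, against 5.44% over all genes, with a median log2 difference of 0.93. The window was picked for this share, so it is a description with no test. It holds Bcat1, Rassf8, Sspn, Klhl42, Plekha5 and the genes that led cluster 3 (Ppfibp1, Fgfr1op2 and Med21). Without mouse 2 the count was 2 of 59 genes (3.39%, against 1.10% of all genes), without mouse 1 it was 5 of 47 (against 2.59% of all genes), without mouse 3 it was 3 of 59 (against 2.70%), and without mouse 4 it was 20 of 56 (against 5.81%). Other windows had larger shares without mouse 1, 2 or 3. Without the 4T1 cluster it was 19 of 58 (against 5.90%), and with the mouse as a block 33 of 56 (58.9%, against 8.10%).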
